A study of Homo sapiens with 12 samples.

Results

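Genes of calcium transport were read in SH-SY5Y cells from 12 Affymetrix expression arrays at the level of messenger RNA. The 10 genes were chosen by name: the plasma membrane calcium pumps ATP2B1, ATP2B2 and ATP2B4, the endoplasmic reticulum pumps ATP2A2 and ATP2A3, the release channels ITPR1 and ITPR3, the store entry pair STIM1 and ORAI1, and the mitochondrial uniporter MCU. They were 10 of 19775 genes with a probe set annotated to exactly 1 symbol, and the probe set with the highest mean over the 12 arrays stood for each gene. Of the 10, 9 lay above the filter on low signal that left 11774 genes to test, and ATP2A3 lay below it. The 10 genes were chosen with earlier results of these data known.

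SH-SY5Y is a human neuroblastoma line of sympathetic lineage that is widely used as a neuron-like model. The arrays fell into 4 groups of 3: fibrillar amyloid-β with an incubation of 24 h, its 24 h control, oligomeric amyloid-β with an incubation of 6 h, and its 6 h control. All groups were the same line grown in D-MEM/F-12 medium. The labels do not say whether the hours are those of peptide ageing or of exposure of the cells, what the controls received, or whether replicates were separate cultures, so the spread behind each p-value may be technical. Form and hours change together, so their effects cannot be told apart. Below, "with time" and "time difference" are names for the 24 h controls against the 6 h controls. Whether the cells themselves changed over those hours is not known from the labels. In bulk RNA, fewer cells of a type and less RNA per cell cannot be told apart either.

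Cytosolic calcium is kept low by ATP-driven pumps, which export it across the plasma membrane or load it into the endoplasmic reticulum. Inositol trisphosphate, made by phospholipase C, opens the ITPR channels and lets stored calcium out. When the store runs down, STIM1 in the reticulum membrane opens ORAI1 channels at the cell surface, and MCU carries part of the calcium into mitochondria; disturbed calcium signalling is a long-studied theme of amyloid-β work in neurons.

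Levels below are deposited log2 signals from MAS5, the Affymetrix method that summarises the probes of a probe set, differences are differences of log2 signal, and errors of group means are SD with n = 3 arrays. A gene was called at an adjusted p under 0.05 from limma with Benjamini-Hochberg adjustment over all 11774 genes. Array medians ranged from 3.89 to 4.12. Noradrenergic markers were present as the labelled line has them, with 8 of 9 above the filter and a summed log2 level of 13.9 to 14.1 in every group. The exception was TH, the first enzyme of catecholamine synthesis, at a mean of 0.73. Of the markers of other cell types, 1 of 3 glial, 1 of 4 epithelial, 1 of 3 blood or endothelial and 4 of 5 mesenchymal genes were above the filter. The difference of the 3′ and 5′ control probe sets of GAPDH, a measure of RNA quality, was lower in the 24 h than in the 6 h arrays by 0.19 (difference -0.19, two-sided exact permutation p = 0.0173, adjusted over 9 comparisons 0.156). In the controls alone, GAPDH had 0.50 ± 0.02 at 24 h and 0.80 ± 0.03 at 6 h, and ACTB had 2.53 ± 0.16 at 24 h and 2.97 ± 0.24 at 6 h (SD, n = 3 each). Neither measure overlapped between the control groups, so the comparison of the controls also compares arrays that differ in RNA quality measures. Fibrillar arrays had 0.65 ± 0.16 for GAPDH and 2.77 ± 0.29 for ACTB (SD, n = 3 each), overlapping the 24 h controls on both. Their differences from those controls were 0.15 and 0.25 (two-sided exact permutation p = 0.3 each, smallest possible 0.1, adjusted 0.338). Fibrillar replicate 1 had 0.81 for GAPDH, within the 6 h control range of 0.77 to 0.83.

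With fibrillar amyloid-β at 24 h, 0 of the 9 genes tested were called, against 1.19% of all genes (0.798% higher and 0.391% lower). At an unadjusted p under 0.05 there was 1, ATP2B1, against 1670 of the 11774 genes. With oligomeric amyloid-β at 6 h, limma called 0 of the 9, with 0 of the 9 and 327 of all genes at an unadjusted p under 0.05, and the share of all genes called was 0%. Between the controls, 24 h against 6 h, 2 of the 9 were called, 1 higher and 1 lower, against 11.7% of all genes (3.76% higher and 7.92% lower). The higher one, ATP2B2, was tested only because its 24 h control arrays were high, and it was not called without the filter (limma adjusted p = 0.130), so the count is a description only. The 3 comparisons share control arrays. The median difference over the 9 genes was 0.01 with fibrils, -0.02 with oligomers and 0.04 between the controls, against -0.00053, -0.0046 and -0.02 over all genes.

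**Figure D1:**
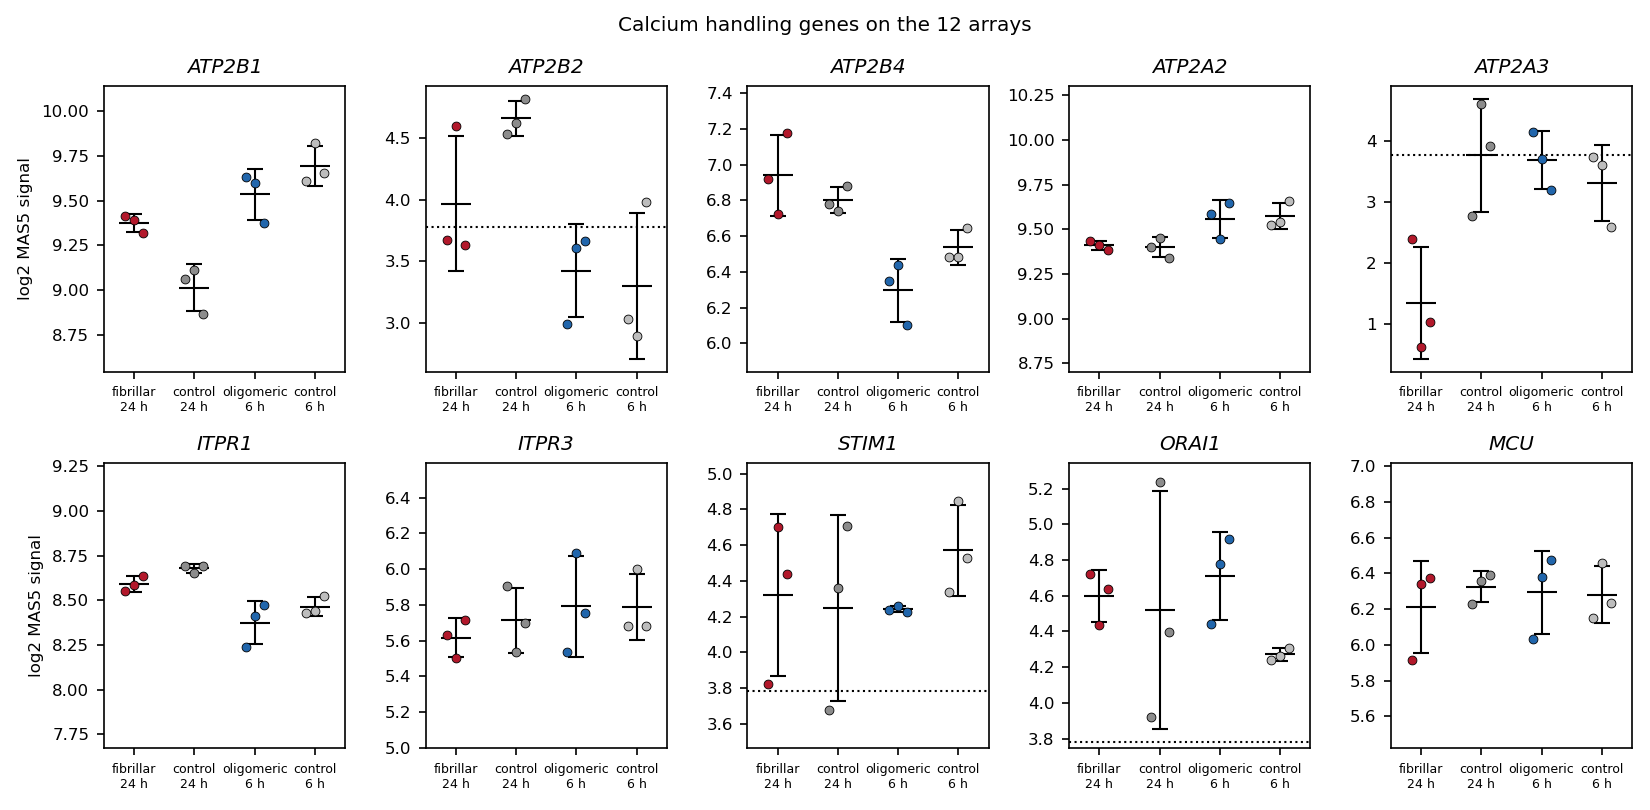
Log2 MAS5 signal (vertical axis) of the 10 calcium handling genes on each array, by group, with 1 point per array and bars for the mean and SD of 3 arrays. The dotted line is the filter at 3.78, and ATP2B1 had all 3 fibrillar arrays, at 9.32 to 9.42, above all 3 control arrays at 24 h, at 8.86 to 9.11.

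ATP2B1 encodes the most widely expressed plasma membrane calcium pump, which binds calmodulin and exports calcium with high affinity. Its probe set read 9.42, 9.39 and 9.32 on the fibrillar 24 h arrays, against 9.06, 9.11 and 8.86 on the 24 h control arrays. It read 9.63, 9.60 and 9.37 on the oligomeric 6 h arrays, against 9.61, 9.82 and 9.65 on the 6 h control arrays. On this probe set the 24 h control arrays were the lowest of all. Fibrillar arrays lay wholly above them and overlapped the oligomeric arrays, and the 6 h groups overlapped each other.

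ATP2B1 fell in the 24 h controls relative to the 6 h controls by 0.68 on the log2 scale (SE 0.09, limma adjusted p = 0.00019), to 0.624 times the 6 h level. Group means were 9.01 ± 0.13 in the 24 h controls and 9.69 ± 0.11 in the 6 h controls (SD, n = 3 each). With fibrils the difference was 0.36 (95% interval 0.18 to 0.55, limma adjusted p = 0.0575), 1.29 times the 24 h control, with means of 9.38 ± 0.05 and 9.01 ± 0.13 (SD, n = 3 each), and the groups did not overlap. Over all genes, 10.9% had fibrillar arrays wholly above their controls. With oligomers the difference was -0.16 (95% interval -0.35 to 0.03, limma adjusted p = 1.0). The difference of the fibrillar and the oligomeric response was 0.52 (SE 0.13, limma adjusted p = 0.169), in a contrast where 0 of the 9 genes and 0.0425% of all genes were called.

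The fall with time in ATP2B1 was called in all 6 fits that left out 1 of the compared arrays, at -0.73 to -0.61. The fibrillar difference was called in none of the 6 fits without 1 of its arrays (0.29 to 0.41, limma adjusted p 0.0707 to 0.233). It passed the threshold in 5 of 25 alternatives, among them each array centred on its median (0.44, limma adjusted p = 0.0390), a filter at the 75th percentile (0.0446), array quality weights (0.0365) and leaving out oligomeric replicate 3 (0.0422). The mean of its 3 probe sets gave 0.22 (limma adjusted p = 0.35). With the 3′ to 5′ measure as a covariate the fall with time was -0.77 (limma adjusted p = 0.0063) and the fibrillar difference 0.41 (limma adjusted p = 0.107).

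**Figure D2:**
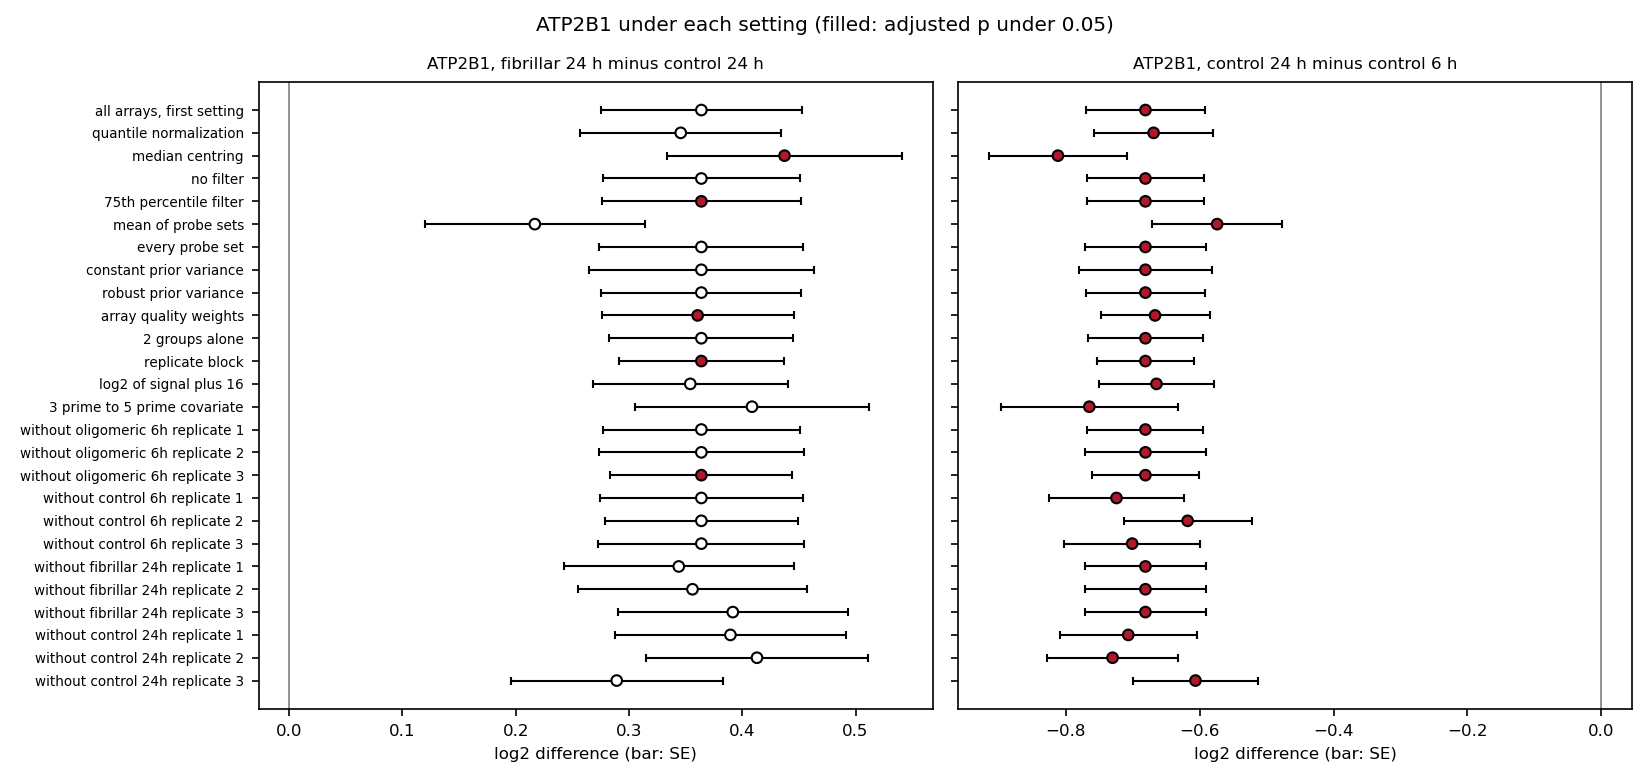
Log2 difference of ATP2B1 (horizontal axis, bars SE) under each processing setting, fibrillar minus control at 24 h on the left and 24 h minus 6 h controls on the right, filled where the adjusted p was under 0.05. The fall with time was filled in all 25 alternatives and the fibrillar difference in 5 of 25.

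All 3 ATP2B1 probe sets were above the filter, and each fell with time in the controls. In the fit of every probe set, where 9.6% of 22123 probe sets were called, 215716_s_at changed by -0.68, 209281_s_at by -0.67 and 212930_at by -0.37 (limma adjusted p = 0.0003, 0.0087 and 0.0296). The fibrillar differences of the same probe sets were 0.36, 0.07 and 0.22 (limma adjusted p = 0.0744, 0.875 and 0.361), and 0.57% of probe sets were called there. The probe set 209281_s_at read 8.99, 8.76 and 8.96 on fibrillar arrays, against 8.98, 9.07 and 8.44 on 24 h control arrays, and these overlapped. The probe set 212930_at read 8.27, 8.18 and 8.28 on fibrillar arrays, against 8.07, 8.05 and 7.98 on 24 h control arrays, and these lay apart. With oligomers 215716_s_at gave -0.16, 209281_s_at -0.36 and 212930_at -0.14, none called, and 0% of probe sets were called there. Oligomeric arrays of 209281_s_at lay wholly below the 6 h controls by a narrow margin, and those of the others overlapped them. Over all genes, 3.76% had oligomeric arrays wholly below their controls.

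**Figure D3:**
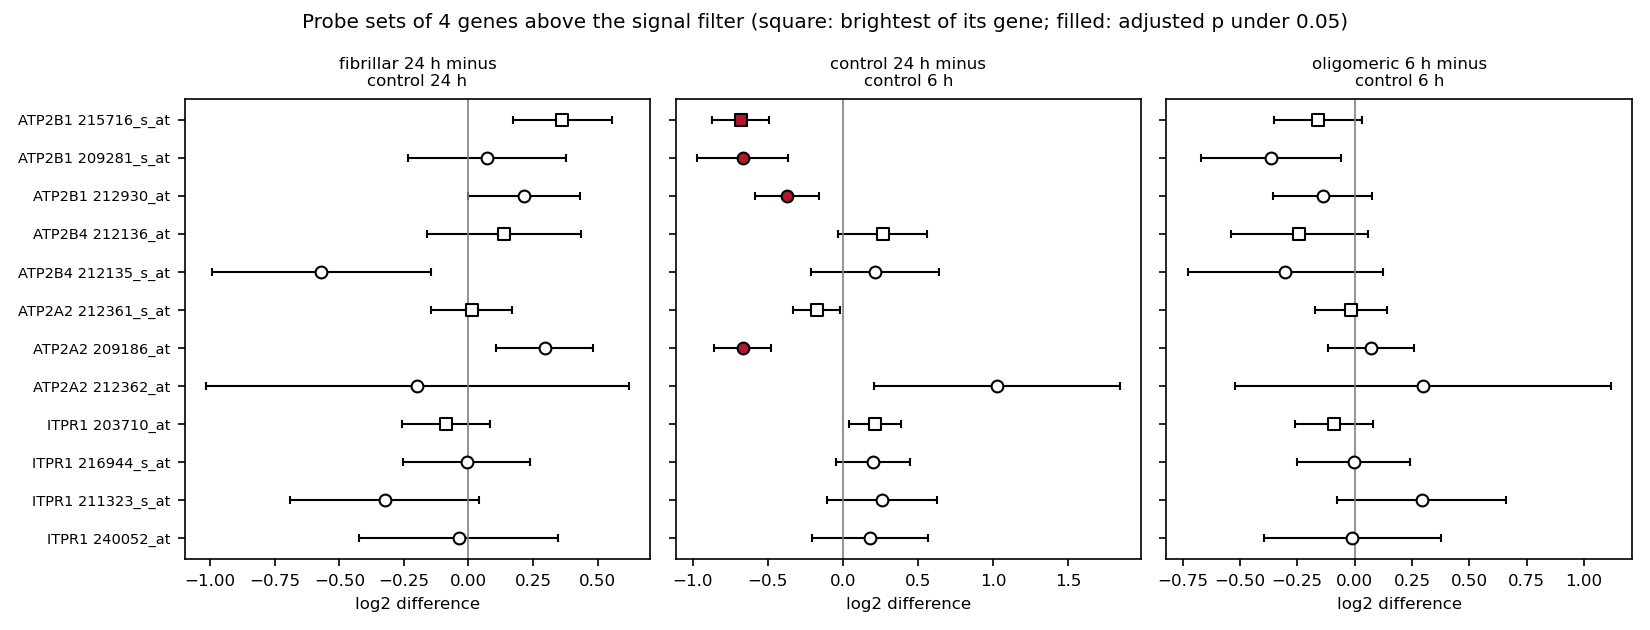
Log2 difference with 95% interval (horizontal axis) for each probe set above the filter of ATP2B1, ATP2B4, ATP2A2 and ITPR1, in 3 comparisons, with squares for the brightest of a gene and filled marks where the adjusted p was under 0.05. All 3 ATP2B1 probe sets lie below 0 between the controls, and the ATP2A2 probe sets lie on both sides of it.

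Upstream sequence is shown for ATP2B1, whose fall with time was called in every alternative, and for ATP2A2, whose probe sets disagreed. Each gene has 2 windows, and the 1 printed was chosen after the motif counts were seen. Both are the 250 bases before a RefSeq start (GRCh38.p14), 5′ to 3′ on the gene's strand, with capitals for a GC box (GGGCGG, on either strand) or a CCAAT box. The ATP2B1 stretch is chr12:89709367-89709616 on the minus strand and has 2 GC boxes. The ATP2A2 stretch is chr12:110280997-110281246 on the plus strand and has 4 GC boxes and 1 CCAAT box. The ATP2B1 window not printed has 4 GC boxes, and that of ATP2A2 has neither motif.
ATP2B1: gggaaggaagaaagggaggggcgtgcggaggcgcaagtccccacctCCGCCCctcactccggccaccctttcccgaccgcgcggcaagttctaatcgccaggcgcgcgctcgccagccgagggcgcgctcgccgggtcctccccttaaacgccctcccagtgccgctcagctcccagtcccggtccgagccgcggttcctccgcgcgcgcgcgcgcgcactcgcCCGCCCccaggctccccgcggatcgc
ATP2A2: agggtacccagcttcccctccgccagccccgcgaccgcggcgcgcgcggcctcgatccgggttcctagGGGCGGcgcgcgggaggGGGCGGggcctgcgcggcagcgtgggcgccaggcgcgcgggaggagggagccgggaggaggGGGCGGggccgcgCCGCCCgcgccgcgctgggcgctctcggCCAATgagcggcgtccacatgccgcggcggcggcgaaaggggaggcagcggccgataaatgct

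Upstream windows were found for 8 of the 10 genes, 17 windows in all. A GC box stood in 13 of the 17 windows, from 7 of the 8 genes, against 42.6% of 35116 windows. ATP2B2 windows 1 and 2 overlap, as do STIM1 windows 3 and 4, so the same boxes count in more than 1 window. The 17 windows were 51.6% to 80.8% G and C, and the share over all windows was not matched for this. The AP-1 motif TGANTCA stood in 0 windows of the 8 genes, against 6.57% of all windows. The endoplasmic reticulum stress response element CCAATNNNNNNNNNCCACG also stood in 0 windows of the 8 genes, against 0.074% of all windows. Both strands were searched, the CCAAT box is part of the stress element, and a match here is a run of letters, not a site of binding.

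ATP2B2, a fast plasma membrane pump prominent in neurons and hair cells, was read higher in the 24 h than in the 6 h controls by a probe set near the filter. It read 4.54, 4.63 and 4.82 on 24 h control arrays, against 3.03, 2.89 and 3.98 on 6 h control arrays. The groups did not overlap, and the fit gave a difference of 1.36 (SE 0.42, limma adjusted p = 0.0464), or 0.66 on the scale of log2(signal + 16). Its mean over the arrays was 3.84 against a filter of 3.78, and the 6 h group means, 3.42 ± 0.38 with oligomers and 3.30 ± 0.59 in controls, lay below it, so ATP2B2 was tested because its 24 h arrays were high, and no size of change rests on these values. Of its 6 probe sets, 1 passed the filter.

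The ATP2B2 call was lost without the filter (limma adjusted p = 0.130), with quantile normalization (0.0683) and with median centring (0.0550). It was also lost when any of 5 of the 6 compared arrays was left out, with limma adjusted p = 0.130 and 0.158 without replicates 1 and 2 of the 6 h controls and 0.0956 to 0.142 without any of the 24 h controls. It was 0.0278 without 6 h control replicate 3. Leaving out arrays of the other groups, which share the estimate of spread, gave 0.0526 and 0.0508 without oligomeric replicates 2 and 3, and 0.0501 and 0.0520 without fibrillar replicates 1 and 3. The difference was 0.72 with the 3′ to 5′ covariate (limma adjusted p = 0.558). On fibrillar arrays the gene read 3.68, 4.60 and 3.63, overlapping the 24 h controls, a difference of -0.69 (95% interval -1.58 to 0.20, limma adjusted p = 0.506). On oligomeric arrays it read 2.99, 3.61 and 3.67, overlapping the 6 h controls, a difference of 0.12 (-0.77 to 1.01).

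ATP2B4, a plasma membrane pump that also tethers signalling proteins, read 6.92, 6.72 and 7.18 on fibrillar arrays, against 6.78, 6.74 and 6.88 on 24 h control arrays, and these overlapped. It read 6.35, 6.44 and 6.10 on oligomeric arrays, against 6.48, 6.48 and 6.65 on 6 h control arrays, wholly lower but not called. The differences were 0.14 with fibrils and -0.24 with oligomers (95% interval -0.54 to 0.06, limma adjusted p = 1.0). Oligomeric arrays lay wholly below their controls in 3.76% of all genes. The 24 h controls lay wholly above the 6 h controls, by 0.26 (95% interval -0.03 to 0.56, limma adjusted p = 0.248). Another ATP2B4 probe set, 212135_s_at, went the other way with fibrils, at -0.57 (limma adjusted p = 0.206).

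**Figure D4:**
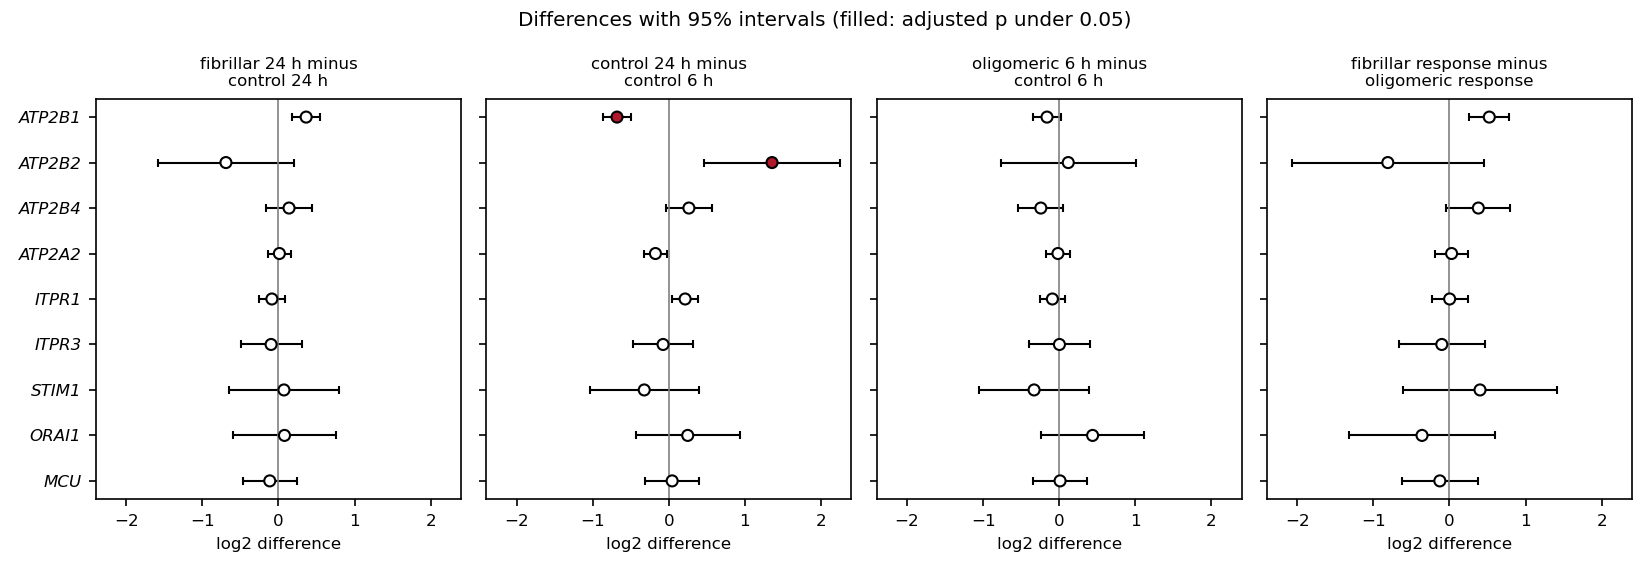
Log2 difference with 95% interval (horizontal axis) for the 9 genes tested in 4 contrasts, filled where the adjusted p was under 0.05. The filled points are ATP2B1, at -0.68, and ATP2B2, at 1.36, both between the 24 h and the 6 h controls.

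ATP2A2 encodes the pump that refills the endoplasmic reticulum in most cells. Its brightest probe set read 9.44, 9.41 and 9.39 on fibrillar arrays, against 9.40, 9.45 and 9.34 on 24 h control arrays, and 9.58, 9.44 and 9.65 on oligomeric arrays, against 9.53, 9.54 and 9.66 on 6 h control arrays. Each peptide group overlapped its control, and the 24 h controls lay wholly below the 6 h controls. The fibrillar difference was 0.01 (95% interval -0.14 to 0.16), the oligomeric one -0.02 (-0.17 to 0.14), and the time difference -0.18 (limma adjusted p = 0.129).

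The probe sets of ATP2A2 gave different answers on time. 209186_at read 8.75, 9.07 and 8.72 on 24 h control arrays, against 9.46, 9.52 and 9.56 on 6 h control arrays, and fell by 0.67 on the log2 scale (difference -0.67, limma adjusted p = 0.0003). On fibrillar arrays it read 9.07, 9.23 and 9.13, a difference of 0.29 from the 24 h controls (limma adjusted p = 0.143). A dimmer probe set, 212362_at, had a time difference of 1.02 (limma adjusted p = 0.11). With each array centred on its median the brightest probe set was called between the controls, at -0.31 (limma adjusted p = 0.0199).

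ATP2A3, the reticulum pump known from blood cells and epithelia, was below the filter, with a mean of 3.03 and none of its 5 probe sets above it. It read 2.39, 0.63 and 1.03 on fibrillar arrays, against 2.77, 4.61 and 3.93 on 24 h control arrays, and the fibrillar arrays were wholly lower. In the fit without a filter, where 0.399% of genes were called, the difference was -2.42 (SE 0.71, limma adjusted p = 0.182). At this low level oligomeric arrays read 4.15, 3.72 and 3.21, against 3.74, 3.61 and 2.60 on 6 h control arrays, with overlap. The suffix of this probe set, 213036_x_at, marks probes that can cross-hybridise. The same suffix is on the brightest CALR, SDF4, HSP90B1 and ORAI2 probe sets below, and on some but not all of the others of these genes.

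ITPR1, the inositol trisphosphate receptor best known from neurons, read 8.55, 8.58 and 8.64 on fibrillar arrays, against 8.69, 8.65 and 8.69 on 24 h control arrays, wholly lower by a small step. It read 8.24, 8.41 and 8.47 on oligomeric arrays, against 8.43, 8.44 and 8.53 on 6 h control arrays, and these overlapped. The differences were -0.09 with fibrils (95% interval -0.25 to 0.08, limma adjusted p = 0.696) and -0.09 with oligomers (-0.26 to 0.08). Between the controls the difference was 0.21 (limma adjusted p = 0.0924), with 24 h controls wholly higher, and the 4 probe sets above the filter gave 0.18 to 0.26 with none called. Array quality weights brought it past the threshold (limma adjusted p = 0.0486). The probe sets differed more with the peptides, with none called. 211323_s_at gave -0.33 with fibrils, wholly lower (limma adjusted p = 0.434), and 0.29 with oligomers, with overlap. 216944_s_at and 240052_at gave -0.0069 and -0.04 with fibrils and -0.0042 and -0.0097 with oligomers.

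ITPR3, a receptor of the same family typical of epithelia, ranged from 5.50 to 6.09 over the 12 arrays. Its groups overlapped in each comparison, with differences of -0.10 with fibrils, 0.00 with oligomers and -0.08 between the controls (95% intervals -0.50 to 0.30, -0.40 to 0.40 and -0.48 to 0.32).

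STIM1, the calcium sensor of the reticulum, and ORAI1, the channel it opens, were dim. STIM1 read 4.24, 4.26 and 4.23 on oligomeric arrays, against 4.34, 4.85 and 4.53 on 6 h control arrays, wholly lower but not called (difference -0.33, 95% interval -1.05 to 0.39). Its other probe set, 1557477_at, gave 0.39 for the same comparison. On fibrillar arrays STIM1 read 3.82, 4.70 and 4.44, against 3.68, 4.36 and 4.71 on 24 h control arrays, and these overlapped. Its differences were 0.07 with fibrils (95% interval -0.65 to 0.79) and -0.32 between the controls (-1.04 to 0.40).

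ORAI1 read 4.44, 4.78 and 4.92 on oligomeric arrays, against 4.24, 4.26 and 4.31 on 6 h control arrays, wholly higher but not called (difference 0.44, 95% interval -0.24 to 1.12). On fibrillar arrays it read 4.72, 4.44 and 4.64, against 3.92, 5.24 and 4.40 on 24 h control arrays, and these overlapped. Its differences were 0.08 with fibrils (95% interval -0.60 to 0.76) and 0.25 between the controls (-0.43 to 0.93). MCU, the pore of the mitochondrial uniporter, ranged from 5.91 to 6.47 and overlapped between groups in each comparison. Its differences were -0.11 with fibrils, 0.01 with oligomers and 0.04 between the controls (95% intervals -0.47 to 0.24, -0.34 to 0.36 and -0.31 to 0.40).

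Over the 9 genes, arrays did not overlap in 2 with fibrils, 3 with oligomers and 5 between the controls, against 19.7%, 7.36% and 32.6% of all genes. With fibrils ATP2B1 was higher and ITPR1 lower (10.9% and 8.73% of all genes). With oligomers ORAI1 was higher and ATP2B4 and STIM1 were lower (3.6% and 3.76%). Between the controls ATP2B2, ATP2B4 and ITPR1 were higher at 24 h and ATP2B1 and ATP2A2 lower (13.7% and 18.9%). The intervals of the dim genes STIM1, ORAI1 and ATP2B2 admit differences above 0.6 in size with fibrils, so changes of that size were not detectable in them with 3 arrays a group.

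Other genes of calcium signalling were read from 6 lists of 83 genes. Of these, 78 were matched to a probe set used here and 61 were tested. The lists were chosen with earlier results of these data known, so counts in them are a description only. With fibrils 1 of the 61 was called, against 1.19% of all genes, and with oligomers 0, against 0%. Between the controls 2 were higher and 7 lower, 9 in all of 61, against 3.76% higher, 7.92% lower and 11.7% in all over all genes. The median of the 61 was 0.03 with fibrils, -0.02 with oligomers and -0.06 between the controls.

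Among 16 partners of pumps, release and entry, SARAF, which turns store entry down, rose with fibrils. It read 11.66, 11.75 and 11.87 on fibrillar arrays, against 11.37, 11.45 and 11.55 on 24 h control arrays, a difference of 0.30 (SE 0.07, limma adjusted p = 0.0436). The call was kept without fibrillar replicate 1 (0.0389) and lost without either other fibrillar array (limma adjusted p = 0.0644 without replicate 2 and 0.213 without replicate 3). It was also lost without any of the 24 h controls (0.0728 to 0.182), and in 16 of its 25 alternatives in all. Of the 6 h arrays, it was lost without any of the 3 controls (0.0560 to 0.0691) and without oligomeric replicate 2 (0.0578). CRACR2A, a calcium-sensing partner of ORAI1, had the lowest p among those with lower signal with fibrils, at -0.41 (limma adjusted p = 0.516). With the 3′ to 5′ covariate this was -0.09, and with oligomers the gene had -0.70, not called.

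Between the controls the same list held 2 genes that fell at 24 h. BSG, which encodes basigin, a subunit of plasma membrane calcium pumps, read 7.32, 7.22 and 7.35 on 24 h arrays, against 7.70, 7.82 and 7.69 on 6 h arrays (difference -0.44, limma adjusted p = 0.0207). Its call was lost without replicate 2 of the 6 h controls (0.0870) and without any of the 24 h controls (0.0511 to 0.0652). TMBIM6, a reticulum membrane protein also called BAX inhibitor, read 10.19, 10.19 and 10.21 on 24 h arrays, against 10.57, 10.74 and 10.47 on 6 h arrays (difference -0.39, limma adjusted p = 0.0026), though its other probe set gave -0.13 (limma adjusted p = 0.464). IRAG1, a regulator of ITPR1 in smooth muscle, had 0.48 (limma adjusted p = 0.165), and its other probe set gave -0.05.

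In the list of calcium-binding proteins and chaperones of the secretory lumen, 3 of 10 genes fell between the controls and 0 rose, with a list median of -0.25, and 0 of 10 were called with either peptide. Over all genes 7.92% were lower and 3.76% higher between the controls, and SDF4 and CANX lost their calls with the 3′ to 5′ covariate (limma adjusted p = 0.0774 and 0.0783). CALR, the store's main calcium buffer, read 8.29, 8.57 and 8.36 on 24 h control arrays, against 9.09, 9.30 and 9.20 on 6 h control arrays (difference -0.79, SE 0.10, limma adjusted p = 0.00012). SDF4, a calcium-binding protein of the Golgi lumen, read 8.75, 8.77 and 8.87, against 9.61, 9.28 and 9.29 (difference -0.59, limma adjusted p = 0.0026). Its other probe sets gave -0.41, -0.22 and -0.14 (limma adjusted p = 0.0486, 0.402 and 0.420). CANX, a chaperone of glycoproteins, read 10.85, 10.83 and 10.94 on 24 h arrays, against 11.22, 11.25 and 11.14 on 6 h arrays (difference -0.32, limma adjusted p = 0.0031).

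CANX probe sets disagreed, since 208853_s_at rose by 0.38 (limma adjusted p = 0.0353), and the mean of its probe sets gave -0.061 (0.634). The 2 other CALR probe sets gave -0.81 and -0.88 (limma adjusted p = 0.00012 and 0.155). The second of them, 200935_at, lacks the suffix for cross-hybridising probes. Fibrillar values in this list ran from -0.35 to 0.19, with HSP90B1, a reticulum chaperone, at -0.28 (limma adjusted p = 0.0854) and RCN1, a reticulocalbin, at 0.19 (0.405). RCN2 had a time difference of 0.13 (limma adjusted p = 0.253).

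Upstream of this list the stress response element occurred in 3 of 10 genes, CALR, CANX and HSP90B1, and in 26 of 35116 windows overall. The first count is of genes and the second of windows, and the 26 include windows of these 3 genes, so the counts are not directly comparable. The 10 genes have 14 windows, and CANX windows 3 and 4 overlap and hold the same element. Between the controls, CALR was lower at 24 h on each probe set above the filter. CANX was called lower on its brightest probe set and higher on 208853_s_at. HSP90B1 had -0.13 (limma adjusted p = 0.322), and its other probe set above the filter gave 0.19. The elements are shown, capitals marking the fixed letters, and a link to expression was not tested. They lie at chr19:12938384-12938402, chr5:179698778-179698796, chr12:103930216-103930234 and chr12:103930321-103930339, on the minus, plus, plus and minus strands.
CALR: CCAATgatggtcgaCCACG
CANX: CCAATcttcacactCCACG
HSP90B1: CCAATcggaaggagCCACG
HSP90B1: CCAATcgcgccgcaCCACG

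Among 10 genes of inositol trisphosphate formation and removal, 2 were called higher and 2 lower between the controls, against 3.76% and 7.92% of all genes. PLCB4, a phospholipase C, read 8.70, 8.61 and 8.74 on 24 h arrays, against 8.15, 8.10 and 8.24 on 6 h arrays (difference 0.52, limma adjusted p = 0.0022). PLCB1, a phospholipase C of the same class, read 7.89, 8.04 and 8.03, against 8.37, 8.53 and 8.33 (difference -0.43, limma adjusted p = 0.0059). Their groups did not overlap, and both calls held in all 6 fits without a compared array. Both PLCB4 probe sets were called, the other at 0.38 (limma adjusted p = 0.0166).

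PLCE1, a phospholipase C driven by RAS proteins, had a difference of 0.63 (limma adjusted p = 0.0391), which was lost without any one of the 6 compared arrays (0.0517 to 0.169). ITPKB, the kinase that removes inositol trisphosphate, had -0.66 (limma adjusted p = 0.0369), lost without any of 5 compared arrays (0.0657 to 0.149) and kept without 6 h control replicate 1 (0.0168). Its other probe sets gave -0.05 and 0.17. With fibrils ITPKB had 0.48 (limma adjusted p = 0.263) and PLCB4 -0.13 (0.58), while the other PLCB4 probe set gave 0.09.

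With the 3′ to 5′ measure as a covariate, 467 genes were called between the controls, against 1375. Of the 9 list genes called there, CALR kept its call (difference -0.94, limma adjusted p = 0.0039), and the other 8 lost theirs (0.0668 to 0.0933). The differences of those 8 under it had the same signs. They were larger in size for BSG, ITPKB and PLCE1, at -0.55, -0.94 and 0.91. For these the SE rose, from 0.11 to 0.17, from 0.19 to 0.28 and from 0.19 to 0.27. They were smaller in size for the others, at -0.38 for TMBIM6, 0.46 for PLCB4, -0.42 for PLCB1, -0.31 for CANX and -0.56 for SDF4.

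Other family members, mitochondrial carriers and calmodulin targets held no called gene. Among 6 family members, ORAI2 and ORAI3 had fibrillar differences of -0.21 and 0.26 (limma adjusted p = 0.261 and 0.547). RYR3 and ORAI2 had time differences of -0.84 and 0.20 (limma adjusted p = 0.128 and 0.138). The other ORAI2 probe sets disagreed, at -0.25 to 0.09 with fibrils and -0.21 to 0.17 with time. Among 8 mitochondrial and sodium exchange genes, MICU3, a uniporter regulator, had 0.32 with fibrils and 0.31 with time (limma adjusted p = 0.248 and 0.114). SMDT1, an essential small subunit of the uniporter, had -0.06 and -0.14 (limma adjusted p = 0.861 and 0.439). Its other probe set gave -0.20 with fibrils and 0.15 with time. Among 11 calmodulin and calcineurin genes, the calcineurin subunits PPP3CC and PPP3R1 had 0.27 and -0.28 with fibrils (limma adjusted p = 0.377 and 0.531), while PPP3R1 and RCAN1 had 0.41 and -0.29 with time (0.157 and 0.178).

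**Figure D5:**
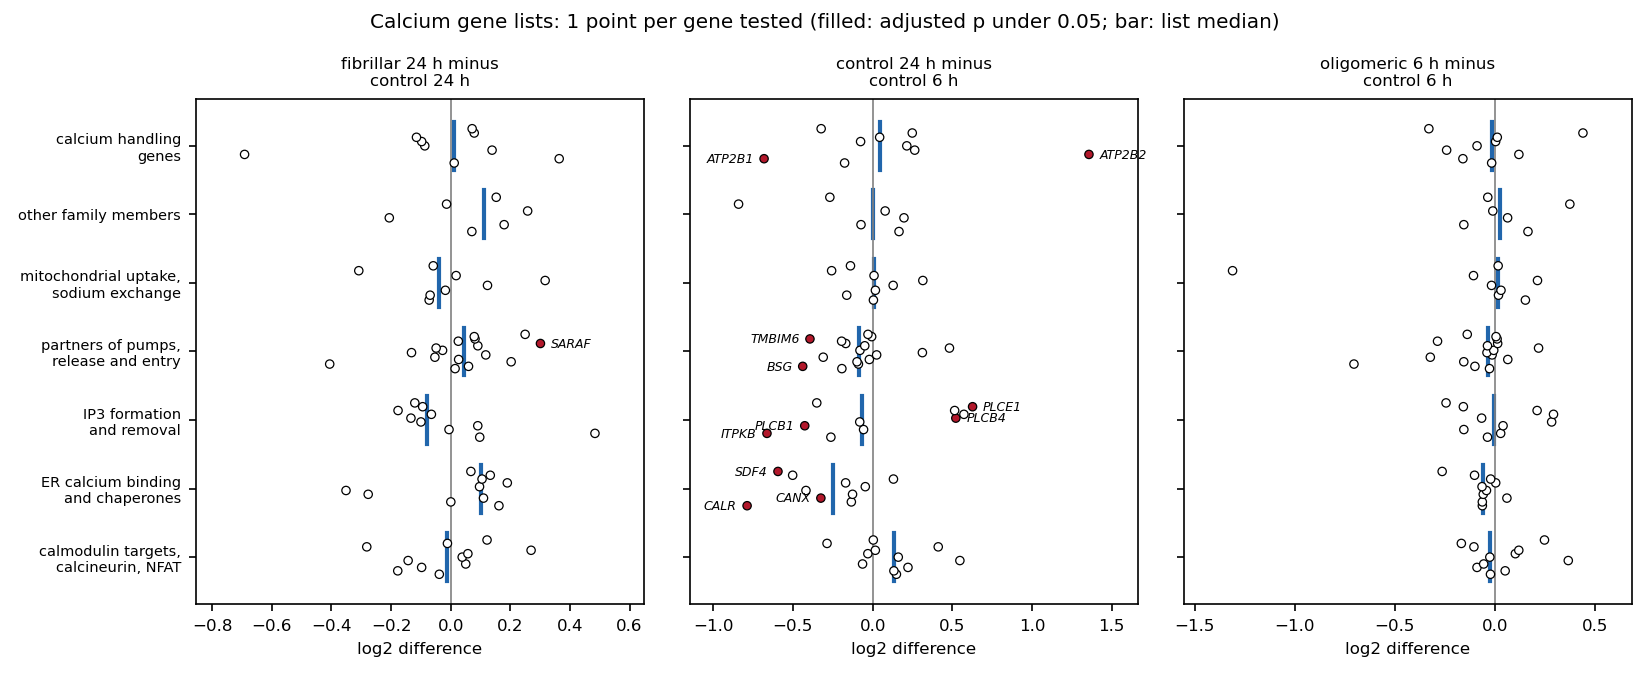
Log2 difference (horizontal axis) of each gene tested, 1 point per gene, for the 9 calcium handling genes and 6 other lists in 3 comparisons, with a bar for each list's median and filled points where the adjusted p was under 0.05. Called genes stand between the controls, except SARAF, at 0.30 with fibrils, and the reticulum lumen list has a time median of -0.25.

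The 4 genes whose pattern over the 12 arrays lay nearest to that of ATP2B1, after centring each on its own mean, were SLC7A1, FNDC3A, DCBLD2 and RTN2. Their root mean square distances from ATP2B1 were 0.095, 0.098, 0.11 and 0.12, where ATP2B1 itself varied by 0.27. SLC7A1, an arginine and lysine carrier, averaged 9.99 ± 0.05 on fibrillar arrays, 9.67 ± 0.16 on 24 h control arrays, 10.31 ± 0.08 on oligomeric arrays and 10.25 ± 0.13 on 6 h control arrays (SD, n = 3 each).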

How the data were processed

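The deposited values were log2 probe set signals of 12 arrays, made by the authors with MAS5 per the submitters' processing notes, whose version is not stated. The trimmed mean linear signal, from 2% to 98%, was 100.002 on every array, so no further normalization was applied, and detection calls were not used here. Of 54675 probe sets, 41091 had 1 gene symbol in the platform annotation, 1801 several and 11721 none. Genes with a mean at or above the median of all probe sets (log2 3.78, signal 13.8) were tested in limma (version 3.58.1; R version 4.3.3, with data.table version 1.17.8) in a group-means model of all 12 arrays with a mean-variance trend, and p-values were adjusted by Benjamini-Hochberg over 11774 genes. The number of arrays limits the precision: the median standard error was 0.13 (log2). The procedure was tested on simulated data.

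The members and lists were chosen with earlier results of these data known. All 10 members were named, and from each other list every called gene and, with fibrils and between the controls, the gene in each direction with the smallest p. Same-numbered arrays correlated by -0.02 to 0.09 in their deviations from group means, so numbers were not used as pairs. No 2 arrays held identical values. Promoter windows came from RefSeq (GRCh38.p14). The alternatives were 2 normalizations, 2 filters, 2 probe set rules, 2 prior variances, array weights, the compared groups alone, a replicate block, log2(signal + 16), a 3′ to 5′ covariate and each array left out.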

Additional observations from a re-analysis of the deposited data

How the results depend on the processing

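The count of calcium handling genes called with oligomers was 0 in 25 alternatives, and for the difference of responses 0 in 24, where the compared groups alone could give no value. With fibrils it became 1, ATP2B1, under median centring, the 75th percentile filter and array quality weights, and over leaving out each array it was 0 to 1. Between the controls the count of 2 became 1 under quantile normalization, no filter, the 75th percentile filter (which drops 5 of the 9 genes) and the 3′ to 5′ covariate, and 1 to 2 over leaving out each array, with ATP2B1 called in all 25. It was 3 with array quality weights, which added ITPR1, and under median centring the 2 were ATP2B1 and ATP2A2, with ATP2B2 lost. Numbers did not pair the arrays: with a replicate block the fibrillar count was 1 (ATP2B1, limma adjusted p = 0.0287) and 184 genes were called, against 140. Over all genes, fibrillar calls were 7 with a constant prior variance, 35 with the compared groups alone, 39 with the 3′ to 5′ covariate, 62 with the mean of probe sets, 79 without a filter, 268 with array quality weights and 14 to 185 leaving out each array. Calls between the controls were 467 with the covariate and 2123 with every probe set, against 1375, and 719 to 1467 leaving out each array. Those for the difference ran from 0 to 64, against 5, and with oligomers from 0 to 1. Median centring moved the median of all genes between the controls to -0.15, and the share of calls that were higher to 86.1% against 67.1% with fibrils, 7.33% against 32.2% between the controls and 92.3% against 20% for the difference. Quantile normalization gave 0% higher for the difference, of 3 calls.

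Differences that changed sign were all uncalled, and the cause was not tested. Under quantile normalization ITPR3 was -0.0080 with oligomers, ATP2A2 was -0.0024 with fibrils, ITPR1 was -0.014 for the difference. Under median centring ITPR3 was -0.061 and MCU was -0.052 with oligomers, SMDT1 was 0.015 with fibrils, MCU was -0.087 and RCN2 was -0.00017 with time, ITPR3 was 0.037 and MCU was 0.011 for the difference. With the mean of probe sets ATP2A2 was 0.12, ITPR1 was 0.047 and STIM1 was 0.031 with oligomers, ATP2B4 was -0.22 with fibrils, ATP2A2 was 0.060 and SMDT1 was 0.0045 with time, ATP2A2 was -0.081 and ITPR1 was -0.16 for the difference. With array quality weights ITPR1 was -0.0068 for the difference. With the 3′ to 5′ covariate ATP2B2 was -0.12, ITPR3 was -0.048 and MCU was -0.093 with oligomers, MCU was 0.032, ORAI1 was -0.038 and SMDT1 was 0.0018 with fibrils, MCU was -0.23 with time, ITPR3 was 0.023 and MCU was 0.12 for the difference. Leaving out each array, ranges that crossed 0 with fibrils were ATP2A2 -0.017 to 0.039, MCU -0.20 to 0.034, SMDT1 -0.16 to 0.053, STIM1 -0.21 to 0.32 and ORAI1 -0.22 to 0.44. With oligomers they were ATP2A2 -0.061 to 0.041, ITPR3 -0.15 to 0.13, MCU -0.078 to 0.14 and ATP2B2 -0.085 to 0.46. With time they were MCU -0.021 to 0.13, ITPR3 -0.17 to 0.031 and ORAI1 -0.11 to 0.55. For the difference they were ITPR1 -0.065 to 0.050, ATP2A2 -0.030 to 0.073, ITPR3 -0.23 to 0.049 and MCU -0.26 to 0.022.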
